A study of Mus musculus with 2 samples.

Results

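Astrocyte marker genes were followed in glioma stem cells with less Stat5b, a transcription factor of the STAT family. The 10 genes are Gfap, Aldoc, Atp1b2, Aqp4, Slc1a2, Slc1a3, Glul, Aldh1l1, Gja1 and Agt. They were taken by gene symbol, with every probe that carries one of those symbols, which gave 30 of 56594 probes and 10 of 26891 named genes. The cells were a mouse glioblastoma stem cell line, grown as neurospheres in serum-free medium with EGF and bFGF, from a brain tumour induced with the SB transposon. Cells stably carrying a lentiviral short hairpin RNA against Stat5b were set against cells carrying a lentiviral non-target hairpin (control). Each condition had 1 single-colour array labelled with Cy3, both on 1 slide, so no difference could be set against a spread between cultures and no test was run. As a check of the labels, the Stat5b probe well above background on both arrays had a processed signal of 498 on the knockdown array and 1991 on the control array, a log2 difference of -2.0 ± 0.20. The other Stat5b probe, above background only for control cells, was at 7.49 on the knockdown array and 14.7 on the control array.

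Astrocytes take up glutamate from synapses and turn it into glutamine, buffer potassium and water, and are joined to each other by gap junctions. Several of their marker genes, among them Gfap, Slc1a3, Aldoc and Gja1, are also expressed by radial glia and adult neural stem cells. In mouse, STAT3 and BMP signals are known to drive neural precursors towards the astrocyte fate. The markers therefore cover several jobs: a filament (Gfap), metabolic enzymes (Aldoc, Glul, Aldh1l1), membrane transport (Atp1b2, Aqp4, Slc1a2, Slc1a3), cell coupling (Gja1) and a secreted hormone precursor (Agt).

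The probes that carry the results are shown first. AATAAA is the polyadenylation signal, which lies near the end of a transcript, and it was present in 5 of the 30 probes. The 30 bases around it (the signal in capitals) are given below for Aldoc and Atp1b2, the genes past 2-fold, for Agt, detected on the knockdown array only, and for Aldh1l1, which did not differ by more than its error. Stretches without the signal, the first 30 bases of each Gfap probe, follow because those probes were designed on different Gfap transcript variants.
Aldoc probe 2: gagtacatagcaAATAAAtgagagcaaaac
Atp1b2 probe 1: agggtaaagtacAATAAActgagagcgatt
Agt probe 1: gcgctgaccgagAATAAAtgatgagcagca
Aldh1l1 probe 1: gtcatgtcccccatgAATAAAaattgtgag
Gfap probe 1, transcript variant 1: ggttatattaacagagctagcctatgctaa
Gfap probe 2, transcript variant 2: tttgaggaactgaaacgtgttgtgttcaag
Of the 5 probes with AATAAA, 4 were well above background on at least 1 array, and of the 25 without it 13 were. Over all named probes with a sequence, 70.9% of those with the signal and 63.5% of those without it were.

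Detection came first, since most of these genes were faint. A probe is called detected where the scanner software flags it well above background, and a gene is called measured where at least 1 probe is detected on both arrays. Of the 30 probes, 12 were detected on both arrays, 4 on the knockdown array only, 1 on the control array only and 13 on neither. Over all named probes the shares were 59.7% on both, 1.91% on the knockdown array only, 2.64% on the control array only and 35.8% on neither. The measured genes were Aldoc, Atp1b2, Aqp4, Slc1a2, Glul, Aldh1l1 and Gja1. Gfap and Agt were each detected on 1 array, and Slc1a3 on none. The 13 undetected probes had signals of 2.69 to 10.9 on the knockdown array and 2.50 to 9.20 on the control array. Their median log2 difference of 0.12 was close to the 0.11 of all 16487 undetected named probes.

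**Figure D1:**
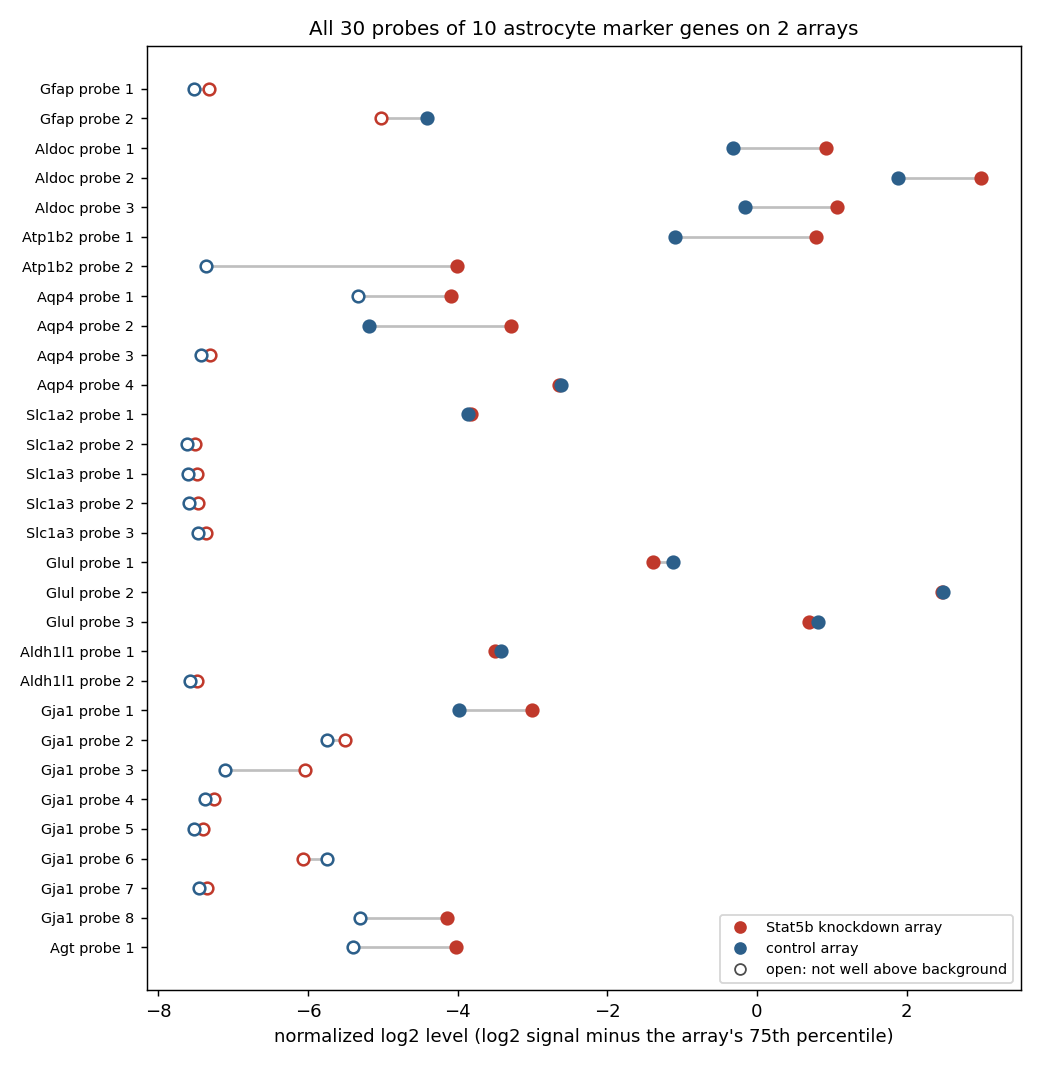
Normalized log2 level (horizontal axis) of all 30 probes, with red points for the Stat5b knockdown array, blue points for the control array and open points where a probe was not well above background. Filled red points lie to the right of the blue ones for each Aldoc and Atp1b2 probe, and the 3 Slc1a3 probes are open on both arrays; levels of different probes are not comparable.

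Past 2-fold were 2 of 7 measured genes, Atp1b2 and Aldoc, both higher in the knockdown, and 0 of 7 were lower by that much. Over all 16354 measured genes 3.66% were higher by 2-fold or more and 2.41% lower, 6.07% in either direction. Above 0 were 5 of the 7, and 51.1% of all measured genes. By probe, 5 of 12 were higher by 2-fold or more and 0 of 12 lower, against 3.39% and 2.75% of all measured probes. Those 5 were the 3 Aldoc probes, Atp1b2 probe 1 and Aqp4 probe 2, and probes of 1 gene are not separate observations. A further pair, Aqp4 and Gja1, lay just under 2-fold, and Slc1a2, Glul and Aldh1l1 lay between -0.13 and 0.04 in log2 difference. The median of the 7 was 0.94, against 0.01 over all measured genes, and it was the value of Aqp4, whose probes disagreed. With 7 members the median moves with 1 gene, and it was 0.04 when each gene was read from its brightest probe. In a bulk culture, more cells of an astrocyte kind and more RNA per cell cannot be told apart.

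**Figure D2:**
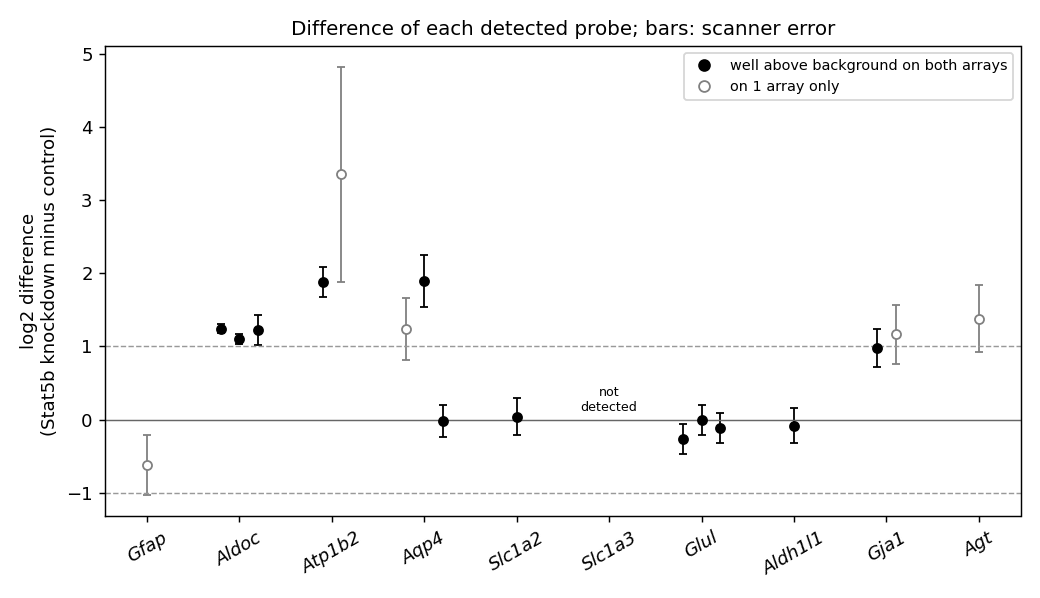
Log2 difference, knockdown minus control (vertical axis), of each probe detected on at least 1 array, by gene. Bars are the scanner software's error and dashed lines mark 2-fold; filled points were detected on both arrays, and the 3 Aldoc probes lie between 1.10 and 1.24.

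Aldoc encodes aldolase C, the brain form of the glycolytic enzyme that splits fructose bisphosphate, and it is enriched in astrocytes. It was the best measured of the 10 genes, because 2 of its 3 probes were each printed on 10 spots. Aldoc probe 1 had signals of 872 to 1053 over 10 spots on the knockdown array, with a median of 920, and of 357 to 432 on the control array, with a median of 398. Aldoc probe 2 had signals of 3756 to 4302 over 9 spots on the knockdown array, with a median of 3894, and of 1707 to 1950 on the control array, with a median of 1810. The spots of the arrays did not overlap for either probe. How many of the 300 probes printed on 10 spots were separated in that way was not counted. Spot by spot, the log2 difference was 1.24 ± 0.05 (SD, 10 spots) for Aldoc probe 1 and 1.11 ± 0.04 (SD, 9 spots) for Aldoc probe 2. Aldoc probe 3 was on 1 spot, in the last 64 rows of the array. It had a signal of 1036 on the knockdown array and 441 on the control array, a log2 difference of 1.23 ± 0.20. The gene's value was 1.19, or 2.28-fold higher, and 377 of 16354 genes (2.31%) were as high or higher. Spots of 1 array share an RNA sample, so their SD is technical. Its widely expressed relative Aldoa differed by 0.15 ± 0.20.

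Atp1b2 encodes the beta-2 subunit of the sodium pump, also known as an adhesion molecule on glia. Its probe 1 had a signal of 850 ± 85 on the knockdown array and 231 ± 23.3 on the control array (± is the scanner software's error). The log2 difference was 1.88 ± 0.20, or 3.67-fold higher, and 77 of 16354 genes (0.471%) were as high or higher. Probe 2 was detected on the knockdown array only, with a signal of 30.5 there and 2.99 on the control array, which puts the level at least 2.52-fold higher. Probe 2 passed detection only on the array where it was high, so its direction is no separate support for probe 1. Both probes lie outside the last 64 rows of the array.

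The other sodium pump genes did not share that size of difference. Of 12 listed subunits and FXYD modulators, 8 were measured, 4 above 0 and 4 below, with 0 past 2-fold and a median of 0.01. Atp1b1, the widely expressed beta subunit, was at 0.87 ± 0.20, with signals of 7993 on the knockdown array and 4360 on the control array.

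Aqp4, the water channel of astrocyte endfeet, gave readings that depended on the probe. Aqp4 probe 2 had a signal of 50.4 on the knockdown array and 13.5 on the control array, a log2 difference of 1.90 ± 0.36. Probe 4 had a signal of 79.0 on the knockdown array and 80.2 on the control array, a difference of -0.02 ± 0.22. Probes 2 and 4 were designed on the same transcript variant, 8, and their gap is far above the SD of 0.310 between different probes of 1 gene over the whole array. Probe 1, on variant 1, was detected on the knockdown array only, at 28.9 there and 12.2 on the control array. Its log2 difference was 1.24 ± 0.42, or 2.36-fold. Probe 3, on variant 7, was not detected. The mean over the measured probes was 0.94 ± 0.21, so it describes neither of them. Among the other aquaporins 9 of 11 were measured, 5 above 0 and 4 below. At least 2-fold higher was 1, against 3.66% of all measured genes, the glycerol-conducting Aqp3 at 1.10 ± 0.20. Aqp11 was at 0.76 ± 0.14 and Aqp1 at 0.35 ± 0.20.

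Gja1 encodes connexin 43, the main gap junction protein of astrocytes and of many neural stem cells. Of its 8 probes, 1 was measured and 1 was detected on the knockdown array only. Probe 1 had a signal of 61.5 on the knockdown array and 31.1 on the control array, a log2 difference of 0.98 ± 0.26, or 1.98-fold. Probe 8 had a signal of 28.0 on the knockdown array and 12.5 on the control array, a log2 difference of 1.17 ± 0.40, or 2.24-fold. Probes 1 and 8 were designed on the same RefSeq transcript, as was probe 6, which was not detected, at 7.33 on the knockdown array and 9.20 on the control array. The other undetected probes were designed on other transcript records, and they are not all separate readings: probes 4 and 5 share 49 bases and probes 2 and 3 share 17. Other connexins had a median of 0.17 with 9 of 19 measured, 7 above 0, 2 below and 0 past 2-fold. Gjb6, connexin 30, the other astrocyte connexin, was not detected.

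These readings sit at low signal, where large ratios are more frequent. Over all measured probes, 5.26% of those with a mean normalized log2 level under -3 were at least 2-fold higher, against 2.91% of those at -3 or more. The Aqp4 probe at 1.90 and the Gja1 probe were in the lower band. So were the measured probes of Slc1a2 and Aldh1l1, so their differences near 0 also rest on faint signal.

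Agt encodes angiotensinogen, the precursor of angiotensin peptides, which astrocytes make in brain. Its only probe had a signal of 30.4 ± 4.51 on the knockdown array and 11.7 ± 3.29 on the control array (± is the scanner software's error), where it was not well above background. The knockdown level was at least 2.51-fold higher. With Atp1b2 probe 2, Aqp4 probe 1 and Gja1 probe 8 it made 4 of 30 probes detected on the knockdown array only with a bound of at least 2-fold, and 0 of 30 were so on the control array. Over all named probes 0.659% were so on the knockdown array and 0.503% on the control array, and without the last 64 rows 0.432% on the knockdown array and 0.224% on the control array; none of the 4 lies in those rows. For Aqp4 probe 1 and Gja1 probe 8 the bound is the measured ratio and not a lower limit. Each of the 4 passed detection only on the array where it was high, so their count is no separate support for a direction. Of 13 other genes of the renin-angiotensin system 6 were measured, 4 above 0, 2 below and 0 past 2-fold. The angiotensin-converting enzyme Ace was at 0.39 ± 0.24 and renin (Ren1) at -0.47 ± 0.20, while the receptors Agtr1a, Agtr1b and Agtr2 were not detected.

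Gfap, the intermediate filament that defines mature and reactive astrocytes, did not follow Aldoc and Atp1b2. Probe 2 had a signal of 15.2 ± 3.53 on the knockdown array, where it was not well above background, and 23.2 ± 3.72 on the control array (± is the scanner software's error). The level was 1.53-fold higher on the control array, a log2 difference of -0.62 ± 0.41. Probe 1 was not detected, at 3.07 on the knockdown array and 2.68 on the control array. Both arrays thus read Gfap at or near background. The filaments typical of neural stem cells were bright: Vim had signals of 88540 on the knockdown array and 96090 on the control array, and Nes had 15870 on the knockdown array and 18170 on the control array. Vim differed by -0.12 ± 0.20 and Nes by -0.20 ± 0.20. Of 12 listed filament genes 12 were measured, 4 above 0 and 8 below. Past 2-fold was the neuronal filament Ina, at 1.28 ± 0.21, where 6.07% of all measured genes were past it in either direction.

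The glutamate genes did not differ by more than the spread between probes. Glul, glutamine synthetase, turns glutamate and ammonia into glutamine. Probe 1 had a signal of 189 on the knockdown array and 228 on the control array, probe 2 had 2742 on the knockdown array and 2760 on the control array, and probe 3 had 802 on the knockdown array and 865 on the control array. The log2 differences were -0.27, -0.01 and -0.11, and the gene's value was -0.13 ± 0.12. Glul probe 1 lies in the last 64 rows. Slc1a2, the transporter GLT-1 that takes up most synaptic glutamate in forebrain, had 1 measured probe, at 34.9 on the knockdown array and 33.9 on the control array, a difference of 0.04 ± 0.25. Slc1a3, the transporter GLAST of radial glia and astrocytes, was not detected with any of its 3 probes. Its signals lay between 2.76 and 2.99 on the knockdown array and between 2.54 and 2.77 on the control array. A difference in Slc1a3 was not detectable on these arrays.

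Other genes that handle glutamate and glutamine gave a median of -0.15, with 12 of 14 measured, 4 above 0, 8 below and 0 past 2-fold. Pc, of those 14, had no probe under that symbol. The glutaminase Gls2 was at -0.91 ± 0.21, the transaminase Gpt2 at -0.85 ± 0.14 and glutamate dehydrogenase, Glud1, at -0.45 ± 0.12. The neutral amino acid transporters of the Slc1 family, Slc1a4 and Slc1a5, were at -0.09 ± 0.20 and 0.12 ± 0.20. The neuronal glutamate transporter Slc1a1 was not detected.

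Aldh1l1 encodes 10-formyltetrahydrofolate dehydrogenase, a folate enzyme used as a general astrocyte marker. Its measured probe had a signal of 43.4 on the knockdown array and 45.9 on the control array, a difference of -0.08 ± 0.23. A second probe, on another transcript, was not detected. Folate enzymes as a group had a median of 0.00, with 10 of 11 measured, 5 above 0 and 5 below, and 0 past 2-fold. The mitochondrial relative Aldh1l2 was at 0.38 ± 0.12.

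**Figure D3:**
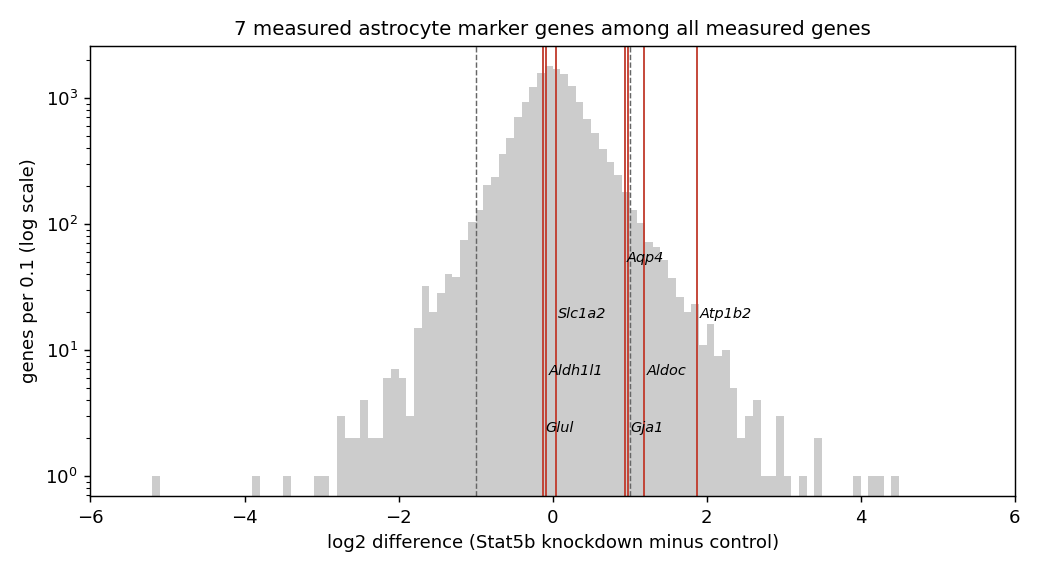
Number of genes (vertical axis, log scale) at each log2 difference, knockdown minus control, for the 16354 measured genes, with red lines at the 7 measured astrocyte marker genes and dashed lines at 2-fold. Atp1b2 and Aldoc lie past the upper 2-fold line, Aqp4 and Gja1 just inside it, and Glul, Aldh1l1 and Slc1a2 near 0.

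**Figure D4:**
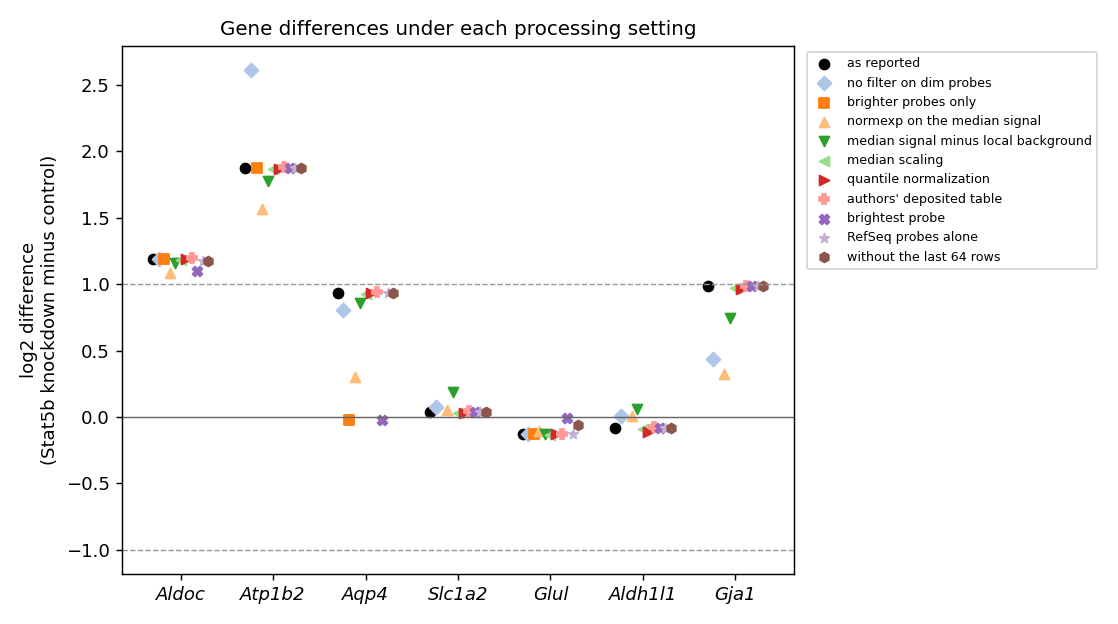
Log2 difference, knockdown minus control (vertical axis), of the 7 measured genes under the reported processing (black circles) and 10 alternatives (coloured marks), with dashed lines at 2-fold. Aldoc and Atp1b2 stay above the upper 2-fold line, while Aqp4 spans -0.02 to 0.94 and Gja1 0.32 to 0.99.

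In a second list of 20 astrocyte genes 12 were measured, 9 above 0 and 3 below, with a median of 0.26, and 1 was higher by 2-fold or more and 0 lower, where 3.66% of all measured genes were higher and 2.41% lower. The gene past 2-fold was Sparcl1, a matricellular protein that astrocytes secrete. Its probe was printed on 10 spots, with signals of 70.0 to 97.5 and a median of 83.6 on the knockdown array, and of 15.4 to 26.1 and a median of 20.3 on the control array. The log2 difference was 2.06 ± 0.23 (SD, 10 spots). With normexp background correction it was 0.83.

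The calcium-binding protein S100b was detected on the knockdown array only, at 122 there and 9.22 on the control array, at least 10.1-fold higher. Mlc1, a membrane protein of astrocyte endfeet, was also detected on the knockdown array only, at 40.7 there and 2.70 on the control array, at least 3.36-fold higher. Neither probe lies in the last 64 rows. The glial transcription factors Sox9, Nfia and Nfib were at 0.40 ± 0.14, 0.32 ± 0.21 and 0.12 ± 0.15. Apoe was at 0.36 ± 0.14, Clu at 0.17 ± 0.20 and Cst3 at 0.20 ± 0.14. Below 0 were Acsbg1 at -0.45 ± 0.20, Fgfr3 at -0.38 ± 0.21 and Mt3 at -0.30 ± 0.20. The measured probes of Nfia and Mt3 lie in the last 64 rows. Not detected were 6 of the 20, among them the radial glia gene Fabp7 and the astrocyte genes Slc4a4 and Hepacam.

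Signals that drive the astrocyte fate went both ways. Of 29 listed genes 28 were measured, 13 above 0 and 15 below, with a median of -0.06. By 2-fold or more 0 were higher and 2 lower, against 3.66% and 2.41% of all measured genes. The genes past 2-fold were Id2 (-1.96 ± 0.15) and Id3 (-1.06 ± 0.21, and -0.93 with normexp), inhibitors of basic helix-loop-helix factors and targets of BMP signalling. Id1, of the same family, was at -0.64 ± 0.20, from a probe in the last 64 rows, and the DNA methyltransferase Dnmt1 at -0.76 ± 0.20. Above 0 were Stat3 (0.90 ± 0.15), the cardiotrophin Ctf1 (0.70 ± 0.20) and the nuclear factor Nfix (0.68 ± 0.12). The cytokine receptor genes Il6st and Lifr were at 0.19 ± 0.15 and 0.24 ± 0.12.

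Genes of reactive astrocytes had a median of 0.07, with 26 of 35 measured, 15 above 0 and 11 below. By 2-fold or more 3 were higher and 1 lower, where 3.66% of all measured genes were higher and 2.41% lower. Ugt1a1, of those 35, had no probe under that symbol. The immunoproteasome subunit Psmb8 was at 1.34 ± 0.20, the complement inhibitor Serping1 at 1.09 ± 0.21 and the sphingosine phosphate receptor S1pr3 at 1.72 ± 0.31, the last from a probe in the last 64 rows. The prostaglandin synthase Ptgs2 was at -1.41 ± 0.20. The widely used reactive markers Lcn2 and Timp1 were at -0.34 ± 0.21 and 0.29 ± 0.20, and Serpina3n was not detected. With normexp, Serping1 was at 0.72 and S1pr3 at 0.49. Detected only in the knockdown, outside the last 64 rows, were the interferon-induced GTPases Iigp1, at 49.2 there and 2.69 on the control array (at least 4.06-fold higher), and Gbp2, at 25.7 there and 8.26 on the control array (at least 2.12-fold higher). B3gnt5 was detected only in control cells, at 3.68 on the knockdown array and 13.2 on the control array.

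**Figure D5:**
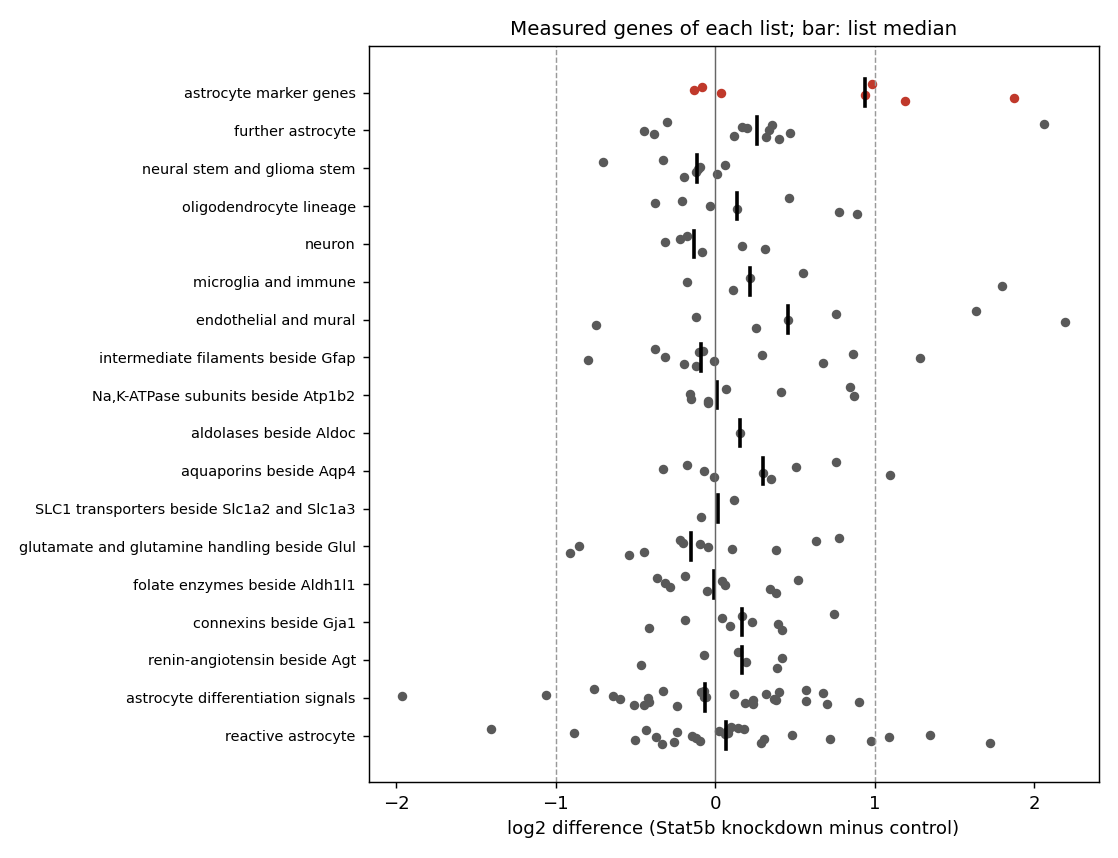
Log2 difference, knockdown minus control (horizontal axis), of each measured gene in 18 lists, with the astrocyte marker genes in red, other lists in grey, black bars at list medians and dashed lines at 2-fold. The astrocyte marker genes run from -0.13 (Glul) to 1.88 (Atp1b2); the 0.94 of Aqp4 is a mean of probes at 1.90 and -0.02.

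Markers of other cell types are given for the same arrays. For stem cell genes (neural and glioma) the median was -0.11, with 8 of 11 measured, 2 above 0 and 6 below, and 0 past 2-fold, and Sox2 was not detected. Olig2, a factor of the oligodendrocyte lineage and of glioma stem cells, was detected only in the knockdown, at 53.2 there and 6.28 on the control array, at least 4.39-fold higher, from a probe in the last 64 rows.

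Endothelial and mural markers had a median of 0.46, with 7 of 10 measured, 5 above 0 and 2 below. Of the 7, 2 were higher and 0 lower by 2-fold or more, against 3.66% and 2.41% of all measured genes. Those past 2-fold were the growth factor receptor Pdgfrb at 2.19 ± 0.33 (0.74 with normexp) and the collagen Col1a2 at 1.63 ± 0.19 (0.23 without the filter on dim probes). Of the genes that mark endothelium, Cldn5, Kdr and Tek were not detected. Pecam1 and Cdh5 were measured, at 0.26 ± 0.23 and -0.75 ± 0.23. Microglia and immune markers had a median of 0.22, with 5 of 10 measured, 4 above 0 and 1 below. The 1 higher by 2-fold or more, against 3.66% of all measured genes, was Tmem119 at 1.80 ± 0.24 (0.85 with normexp). Also measured were Itgam at 0.11 ± 0.18, Csf1r at 0.22 ± 0.14, Ptprc at 0.55 ± 0.20 and C1qb at -0.18 ± 0.28. Aif1, Cx3cr1, P2ry12, C1qa and Tyrobp were not detected. Oligodendrocyte lineage markers had a median of 0.14, with 7 of 10 measured, and neuron markers a median of -0.13, with 6 of 10 measured, and 0 of either were past 2-fold.

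Summed levels, in multiples of the 75th percentile signal, compare the arrays within a list and not the lists with each other, since they add different probes and the brightest probe leads each sum. The astrocyte marker genes summed to 6.81 on the knockdown array and 3.80 on the control array. Their largest terms were Aldoc, Atp1b2 and Glul. Aldoc had a log2 level of 1.66 on the knockdown array and 0.47 on the control array, and Atp1b2 0.78 and -1.09. Glul was at 0.60 on the knockdown array and 0.73 on the control array. The gap between the sums thus rests on Aldoc and Atp1b2, the genes already past 2-fold. Stem cell genes, led by Vim, summed to 216 on the knockdown array and 237 on the control array. Endothelial and mural markers, led by the smooth muscle actin Acta2 (-0.12 ± 0.12), summed to 12.3 on the knockdown array and 12.7 on the control array. Microglia and immune markers summed to 11.97 on the knockdown array and 8.475 on the control array, led by Ptprc (0.55 ± 0.20), whose measured probe lies in the last 64 rows. Oligodendrocyte lineage markers summed to 3.61 on the knockdown array and 2.87 on the control array, and neuron markers to 46.5 on the knockdown array and 54.8 on the control array. The part of other cell types in the astrocyte values was not tested.

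STAT proteins bind the letters TTCNNNGAA, which read the same on both strands. The RefSeq promoter table, build GRCm38.p6, held 9 promoters of 8 of the 10 genes, all but Atp1b2 and Aqp4, each from 250 bases before to 50 after a transcript start. The letters occurred in 4 of those 9, and in 8.30% of all 32851 promoters in the table. The Aldoc promoter is shown because that gene was past 2-fold with each probe and its window held 2 matches (capitals), at 124 and 83 bases before the start. It is the 250 bases before the start, chr11:78323948-78324197, plus strand.
Aldoc: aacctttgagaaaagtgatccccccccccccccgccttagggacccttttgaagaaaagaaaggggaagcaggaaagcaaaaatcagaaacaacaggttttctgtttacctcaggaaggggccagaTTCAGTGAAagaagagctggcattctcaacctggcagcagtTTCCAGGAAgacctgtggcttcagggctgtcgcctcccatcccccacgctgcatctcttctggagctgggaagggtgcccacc
A window at a different Aldoc start held no match. The other matches were TTCCTGGAA in Agt, TTCCAAGAA in Slc1a3 and TTCCAGGAA in Gfap, so genes with the letters included Slc1a3, which was not detected, and Gfap, which was near background. Glul, Slc1a2, Aldh1l1 and Gja1 had none in these windows. A match describes the sequence and is not a site shown to be bound.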

How the data were processed

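The data were single-colour Agilent arrays, 1 of Stat5b knockdown cells and 1 of control cells, grouped by the treatment label. Per the file headers, the deposited spot intensities were read with Agilent Feature Extraction 12.1.0.3. That software subtracts background to give the processed signal, which is not scaled between arrays, and the deposited files also hold its error and flags of 0 or 1. The authors also deposited a table of log2 values, which matched the log2 processed signals after a constant (8.94 for each array) was taken off, within 0.001 for 100% of 56294 single-spot probes, with column medians of -3.83 on the knockdown array and -3.83 on the control array. Its scale and centring were settled from the values, and its symbol column chose the members.

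Log2 processed signals (floor 1) were averaged over a probe's spots without outlier flags and scaled by taking off the 75th percentile of non-control probes on that array, a signal of 494 on the knockdown array and 493 on the control array. Genes were averaged over their probes well above background on both arrays. Well above background were 58.6% of probes on the knockdown array and 59.5% on the control array, and 0 spots were saturated. A probe above background on 1 array was given a bound, its level over the higher of the lowest detected level (-5.25 on the knockdown array, -5.35 on the control array) and its own signal on the other. Where that own signal was the higher, as for Aqp4 probe 1, Gja1 probe 8 and Gfap probe 2, the bound equals the measured ratio. Such a value is not a lower limit. The ± is the scanner software's error of the difference unless an SD is named. It covers no difference between cultures. SDs of the log2 difference were 0.0576 over replicate spots and 0.310 over different probes of 1 gene. With 1 array per group no test was made; a log2 difference of 1 in size (2-fold) was counted. The number of arrays limits the precision.

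The text names every member, Stat5b, and from the lists those past 2-fold, relatives of a member, and others chosen after their values were seen. Members and lists were chosen with earlier results of these data known. Alternatives changed the filter, background correction, scaling, probe summary, probes and array rows. The normexp correction (limma 3.58.1, offset 50) used the raw median signal, and was chosen after seeing the data, because the files hold no mean signal. Some genes of the lists are not reported here by name.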

Additional observations from a re-analysis of the deposited data

How the results depend on the processing

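The count of astrocyte marker genes at least 2-fold apart was 2 as reported, 3 without the filter on dim probes, where Agt is added, and 2 under the other 9 alternatives. The median log2 difference of the measured members was less stable. It was 0.27 without the filter on dim probes (10 genes), 0.58 among brighter probes (4 genes), 0.30 with normexp (chosen after seeing the data) and 0.038 with the brightest probe, and between 0.75 and 0.94 under the other 6. Aldoc ranged from 1.08 to 1.19 and Atp1b2 from 1.57 to 2.61, both past 2-fold under 10 of 10 alternatives. Aqp4 ranged from -0.02 to 0.94 and Gja1 from 0.32 to 0.99. Glul lay between -0.14 and -0.01, Slc1a2 between 0.03 and 0.18 and Aldh1l1 between -0.11 and 0.06. Over all genes, 599 were 2-fold higher and 394 lower as reported. The counts were 190 and 169 with normexp, 1279 and 999 when dim probes were kept, and 361 and 293 among brighter probes. Without the filter the median of all genes moved to 0.10. The causes of these moves were not tested. Faint signal limits Gfap, Agt, Aqp4, Gja1, Slc1a2, Slc1a3 and Aldh1l1. No paired analysis was possible because each group has 1 array.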
